A study of Mus musculus with 14 samples.

Results

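Expression of 10 genes of melanoblasts, the migrating precursors of pigment cells, was examined in RNA-seq counts of mouse skin epithelium. The genes were Dct, Tyr, Tyrp1, Pmel, Mlana, Kit, Ednrb, Sox10, Mitf and Zeb2, taken by name from a table of 26252 genes, in which all 10 were found. The epithelium came from the dorsal skin of wild-type C57BL/6JOlaHsd embryos at E14.5 (days of embryonic development), and each library pooled sheets from 3 to 4 littermates. Live single cells were sorted with an antibody against the adhesion molecule MAdCAM-1 into a positive, placode-enriched fraction and a negative fraction called interfollicular epithelium (IFE). There were 7 libraries of each fraction, which formed 7 pairs by their title codes. The pairs are numbered 1 to 7 here for the codes 11-5-2, 17-5, 18-5, 1-6-3, 27-7-2, 27-7-3 and 27-7-4. The labels describe the cells of both fractions as epithelial and name no marker of the sort other than MAdCAM-1.

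Melanoblasts arise from the neural crest, reach the skin through the dermis, enter the epidermis and later populate hair follicles. Sox10 and Pax3 activate Mitf, the transcription factor that governs the lineage, and Mitf acts on genes of pigment synthesis through a short element known as the M-box. Survival and migration depend on the receptor tyrosine kinase Kit with its ligand Kitl and on the endothelin receptor Ednrb with its ligand Edn3. Dct, Tyr and Tyrp1 form a family of melanin-synthesising enzymes, Pmel builds the fibrils on which melanin is laid down, and Mlana is a melanosome membrane protein. Zeb2 is a zinc-finger repressor used by the neural crest and its derivatives.

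The core letters of the M-box, TCATGTG on either strand, stood in the 250 bases before the RefSeq start of all 3 enzyme genes, Dct, Tyr and Tyrp1. The sites are shown because 2 of the genes, Dct and Tyr, were read in every IFE library whereas Tyrp1, with a like site, had 1 read there. RefSeq promoter sequence (GRCm38.p6) was at hand for 7 of the 10 genes, and the other 4, Kit, Ednrb, Mitf and Zeb2, did not hold these letters in that window. Of all 32851 promoter windows of the same length, 3.25% held them. The letters contain the E-box CATGTG, which stood in the windows of the same 3 genes and in 12.3% of all windows. Each site is given 5′ to 3′ on the strand that reads TCATGTG, with those letters in capitals. The Dct site nearer the start (chr14:118052381-118052407, minus strand) has its capitals begin 151 bases before it. The farther Dct site (chr14:118052462-118052488, plus strand) lies on the strand opposite to the gene. The Tyr site (chr7:87493518-87493544, minus strand) has them begin 22 bases before the start. The Tyrp1 site (chr4:80834156-80834182, plus strand) has them begin 47 bases before the RefSeq start and lies inside the gene as GENCODE draws it.
Dct near site: gcacttagggTCATGTGctaacaaaga
Dct far site: tttattgggcTCATGTGtcccagccaa
Tyr site: aaaaagttagTCATGTGctttgcagaa
Tyrp1 site: ggggagggagTCATGTGctgcctagta
The 3 sites on the genes' own strand shared a run of 10 letters, GTCATGTGCT. The 250 bases before the start are shown for Dct (chr14:118052247-118052496, minus strand) and Tyr (chr7:87493513-87493762, minus strand), because these enzyme genes were among the members with the largest differences between fractions. Capitals again mark the M-box letters, on either strand.
Dct promoter: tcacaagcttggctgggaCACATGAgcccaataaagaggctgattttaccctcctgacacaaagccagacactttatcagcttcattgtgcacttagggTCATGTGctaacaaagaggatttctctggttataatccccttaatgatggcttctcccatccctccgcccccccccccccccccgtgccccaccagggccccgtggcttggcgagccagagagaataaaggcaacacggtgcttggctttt
Tyr promoter: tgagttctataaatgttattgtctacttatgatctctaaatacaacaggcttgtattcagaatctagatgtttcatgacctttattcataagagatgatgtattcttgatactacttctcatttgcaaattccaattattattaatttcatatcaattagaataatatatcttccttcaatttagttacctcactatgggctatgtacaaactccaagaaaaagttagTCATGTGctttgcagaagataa
These matches describe the printed letters only, and binding was not measured.

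Total counts per library ran from 23.8 M to 49.5 M (M, 1e6 counts). Levels are given as counts per M counts (CPM) on library sizes scaled by the trimmed mean of M-values. Madcam1, which encodes the sorted protein, was read at 47.9 ± 12.1 CPM (mean ± SD, n = 7) on the positive side of the sort and 0.561 ± 0.367 CPM (n = 7) on the negative. Both fractions carried epithelial genes. Krt14 was read at 1290 ± 111 CPM in IFE cells and 1470 ± 134 CPM in placode-enriched cells, and Epcam at 142 ± 16.4 and 241 ± 30.7 CPM. Of 8 such genes tested, 3 were called higher and 4 lower (Krt5, Krt15, Cdh1 and Perp) in edgeR, with a median log2 fold change of -0.27. Over all genes tested, 15.5% were called higher and 15.6% lower. The higher call of Krt14 was lost without any 1 of pairs 1, 2, 4, 6 and 7 (edgeR adjusted p between 0.0841 and 0.12). The difference between fractions was tested gene by gene in edgeR with quasi-likelihood, a term for each pair and Benjamini-Hochberg adjustment over 15382 genes. Log2 fold changes are placode-enriched over IFE, with approximate standard errors.

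All 9 melanoblast genes that passed the filter on low counts were lower in the placode-enriched cells, from 7-fold for Sox10 to 67.2-fold for Dct. Tyrp1 did not pass that filter. Dct, Tyr, Mlana and Zeb2, with as few as 0, 1, 0 and 3 reads in a placode-enriched library, passed it through their IFE counts. For these genes, being lower is tied to passing the filter, so the shares over all genes given next are a description and no separate support. Of all genes tested, 15.6% were lower at an adjusted p under 0.05, and 2.53% were lower by at least 4-fold. Each of the 9 was lower in 7 of 7 pairs, which held for 13.2% of all genes tested. For each of the 9, the highest placode-enriched library lay below the lowest IFE library, which held for 7.29% of genes tested. The median log2 fold change of the 9 was -4.43, beside -0.02 over all genes tested. These genes had been picked as pigment-cell markers with earlier results of these data known. In such bulk samples, fewer melanoblasts and less RNA per melanoblast cannot be told apart.

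**Figure D1:**
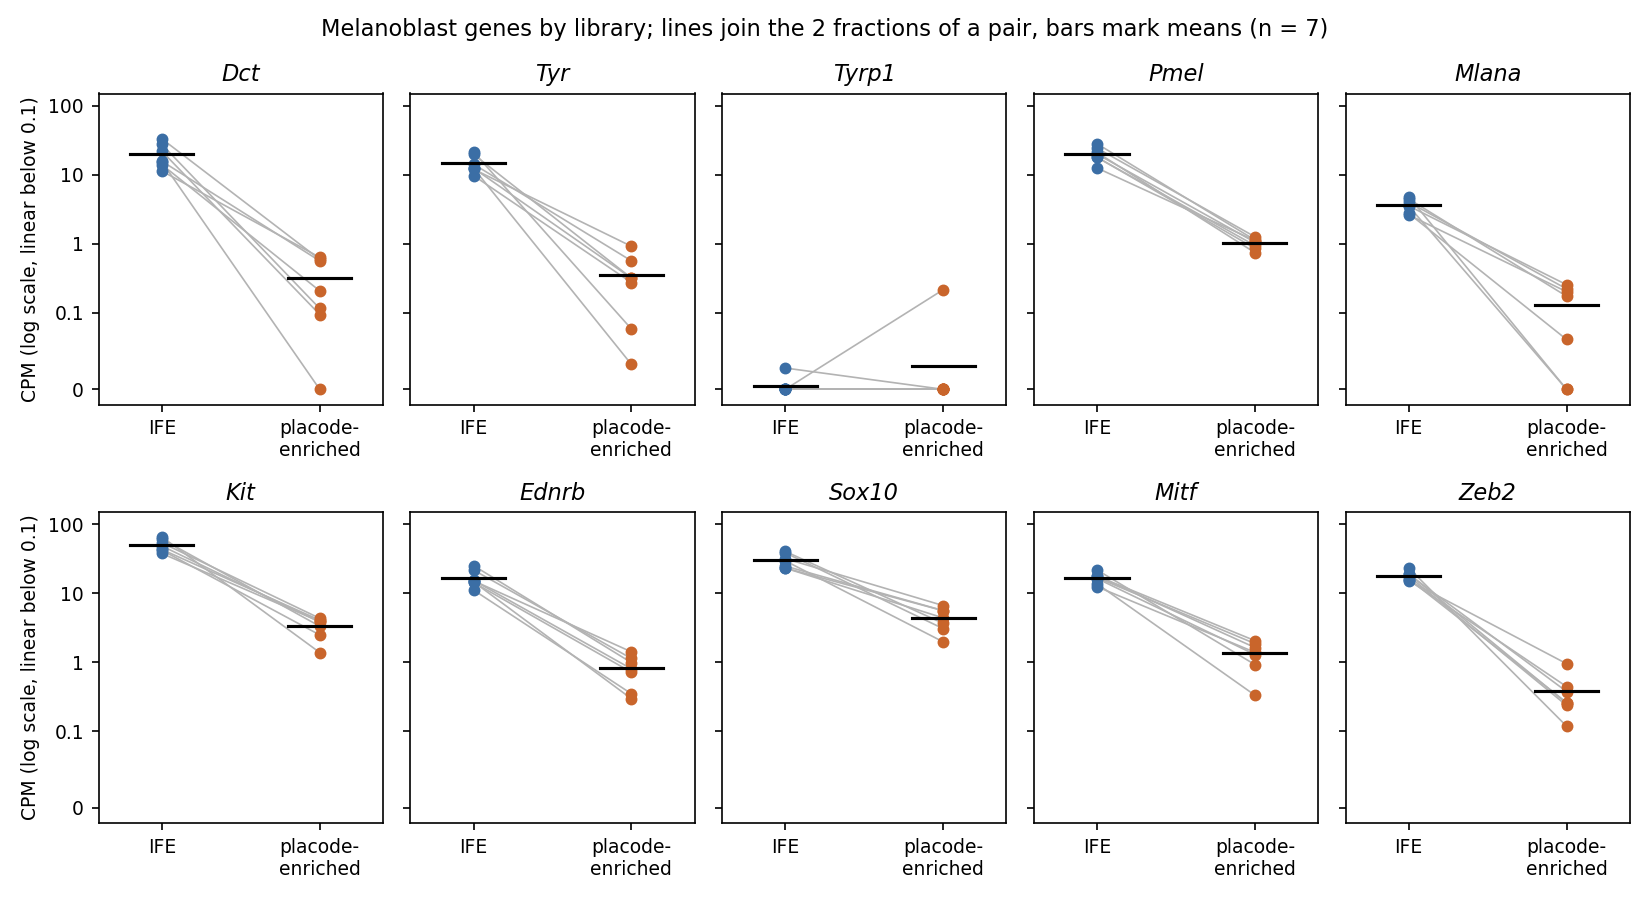
CPM of the 10 melanoblast genes in each library (vertical axis logarithmic above 0.1 and linear below), with IFE in blue, placode-enriched in orange, lines joining the fractions of a pair and bars at the means. For 9 genes no placode-enriched library reaches an IFE library, and Tyrp1 lies at 0 in 6 of 7 libraries of each fraction.

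Among the pigment enzymes, Dct (dopachrome tautomerase; ENSMUSG00000022129, GRCm38 chromosome 14, 118012790 to 118052244, minus strand) showed the largest difference. In IFE libraries Dct ran from 11.3 to 33.1 CPM with a median of 15.7, and in placode-enriched libraries from 0 to 0.633 CPM with a median of 0.207. The lowest IFE library was thus 17.8-fold above the highest placode-enriched one. The log2 fold change of Dct was -6.07 ± 0.43 (edgeR adjusted p = 1.92e-07). It rested on 4684 reads over the IFE libraries and 65 over the placode-enriched ones, where pair 5 had 0.

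Tyr, tyrosinase, the rate-limiting enzyme of melanin synthesis (ENSMUSG00000004651, chromosome 7, 87424771 to 87493512, minus strand), ran from 9.69 to 21.4 CPM in IFE libraries with a median of 12.4. Its placode-enriched libraries ran from 0.0325 to 0.915 CPM with a median of 0.316, and no library of one fraction entered the range of the other. On the log2 scale Tyr fell by 5.38 (SE 0.40, edgeR adjusted p = 2.48e-07), on 83 reads in all placode-enriched libraries.

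Tyrp1, the third enzyme of the family (ENSMUSG00000005994, chromosome 4, 80834123 to 80851719, plus strand), was nearly absent from both fractions. It had 1 read in 7 IFE libraries, in pair 6, and 11 reads in the placode-enriched libraries, all in pair 3. The 6 libraries of each fraction with 0 reads allow up to 3 counts each, which is worth between 0.0762 and 0.128 CPM over the IFE libraries. Dct had 4684 reads and Tyr 3437 in the same IFE libraries. No fold change is given for Tyrp1.

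Pmel, the melanosome fibril protein (ENSMUSG00000025359, chromosome 10, 128704195 to 128720238, plus strand), ran from 12.5 to 28.1 CPM in IFE libraries with a median of 19.9. Its placode-enriched libraries lay close together, from 0.742 to 1.26 CPM with a median of 1.05, or 26 to 39 reads each. Their coefficient of variation was 17.4%, the smallest of the 9 genes in that fraction. On the log2 scale Pmel changed by -4.30 ± 0.17 (edgeR adjusted p = 7.00e-10). Exons of Pmel overlap 34 bases of Cdk2 and 105 bases of Dgka on the opposite strand. Both neighbours were read at like levels in placode-enriched and IFE libraries, Cdk2 at 75.6 ± 6.99 against 82.4 ± 9.84 CPM and Dgka at 69.3 ± 3 against 76.1 ± 3.42 CPM. Whether their reads make up part of the low Pmel level in placode-enriched libraries was not tested.

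Mlana (ENSMUSG00000024806, chromosome 19, 29697824 to 29708634, plus strand), the shortest of the 10 genes by exon length, ran from 2.61 to 4.81 CPM in IFE libraries with a median of 3.52. In placode-enriched libraries it ran from 0 to 0.254 CPM with a median of 0.173, on 33 reads in all. The fractions did not overlap, and the log2 fold change of Mlana was -4.86 ± 0.54 (edgeR adjusted p = 1.25e-05), the least precise of the 9.

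Both receptors were lower in the placode-enriched cells. Kit, the receptor tyrosine kinase on which melanoblast survival depends (ENSMUSG00000005672, chromosome 5, 75574916 to 75656722, plus strand), ran from 37.6 to 65.5 CPM in IFE libraries with a median of 48.3, and from 1.38 to 4.32 CPM with a median of 3.81 in placode-enriched libraries. The log2 fold change of Kit was -3.92 ± 0.22 (edgeR adjusted p = 1.75e-08). Pair 2 held both the highest IFE and the lowest placode-enriched level of Kit.

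Ednrb, the endothelin receptor (ENSMUSG00000022122, chromosome 14, 103814625 to 103844402, minus strand), ran from 11.1 to 25.1 CPM in IFE libraries with a median of 15.1. Its placode-enriched libraries ran from 0.295 to 1.41 CPM with a median of 0.8, below every IFE library. The log2 fold change of Ednrb was -4.43 ± 0.22 (edgeR adjusted p = 7.07e-09).

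The 3 transcription factors were lower by log2 fold changes that spanned -5.63 to -2.81. Zeb2 (ENSMUSG00000026872, chromosome 2, 44983632 to 45117395, minus strand) ran from 15.2 to 23.2 CPM in IFE libraries with a median of 17.7, the narrowest spread of the 9 genes there. In placode-enriched libraries it ran from 0.118 to 0.949 CPM with a median of 0.26, and pair 6 stood above the others. The log2 fold change of Zeb2 was -5.63 ± 0.31 (edgeR adjusted p = 1.71e-08). Its exons overlap 653 bases of the antisense gene Zeb2os, which had 0 reads in placode-enriched and 19 in IFE libraries.

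Mitf (ENSMUSG00000035158, chromosome 6, 97807052 to 98021349, plus strand) ran from 12.4 to 21.7 CPM in IFE libraries with a median of 16.8. It ran from 0.332 to 2.05 CPM in placode-enriched libraries with a median of 1.39, well apart from the IFE range. On the log2 scale Mitf changed by -3.72 ± 0.26 (edgeR adjusted p = 1.43e-07). Counts per gene do not separate its promoters or isoforms.

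Sox10 (ENSMUSG00000033006, chromosome 15, 79154908 to 79165240, minus strand) showed the smallest difference. Its IFE libraries ran from 23.1 to 40.3 CPM with a median of 29.4, and its placode-enriched libraries from 1.97 to 6.61 CPM with a median of 4.38. The ranges did not overlap, and the log2 fold change of Sox10 was -2.81 ± 0.23 (edgeR adjusted p = 8.46e-07). It rested on 1024 reads over the placode-enriched libraries and 7067 over the IFE libraries. Sox10 is also made by Schwann cells and their precursors. Cdh19 and Fabp7, which such precursors make, fell together with it, both named after their values were seen. Both come from a list of Schwann cell and neural genes. Of 11 tested on that list, 5 were lower, 2 higher (Ncam1 and Sox2) and 4 did not pass, where 31.1% of all genes were called. Cdh19, a cadherin, had 312 reads in IFE libraries and 1 in placode-enriched libraries, a ratio of rates of 311 with a 95% exact counting interval from 55.4 to 12300. That interval covers counting error of the pooled reads only, not the spread between pools. The paired edgeR test of Cdh19 gave a log2 fold change of -7.37 and an adjusted p of 4.42e-06. With a prior count of 2, that log2 fold change was -4.4. Cdh19 and Fabp7 passed the low-count filter through their IFE counts, so being lower is tied to passing it. Fabp7, a fatty acid binding protein, had 452 reads in IFE libraries and 7 in placode-enriched libraries, all in pair 1 (edgeR adjusted p = 6.27e-05). The part of such cells in the Sox10 level was not tested.

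**Figure D2:**
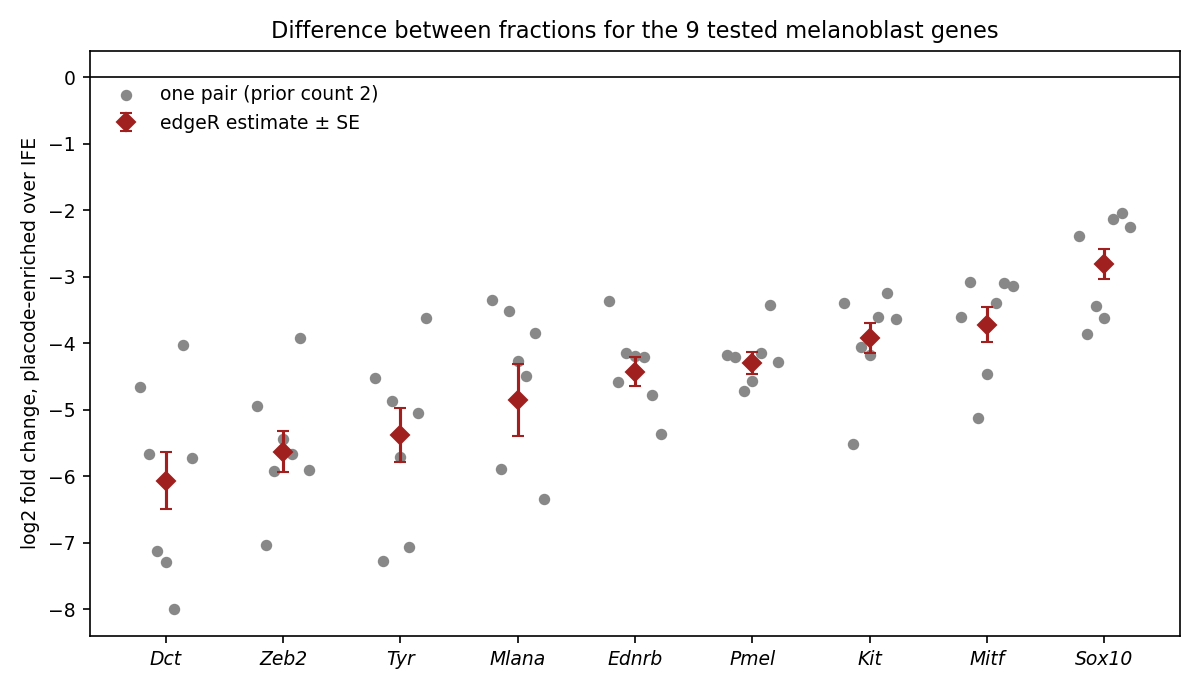
Log2 fold change of placode-enriched over IFE for the 9 tested genes, as the edgeR estimate with its approximate SE (red) and as the value of each of 7 pairs computed with a prior count of 2 (grey). All points lie below 0, from the largest difference in Dct (-6.07) to the smallest in Sox10 (-2.81).

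The level that remained in the placode-enriched cells was not the same share of the IFE level for each gene. As a median over pairs, it was 1.48% of the level in the paired IFE library for Dct, 1.61% for Zeb2, 2.55% for Tyr and 3.9% for Mlana. It was 5.02% for Ednrb, 5.21% for Pmel, 7.88% for Kit, 9.15% for Mitf and 19% for Sox10. The low end of this order was not resolved, since Dct fell more than Zeb2 in 4 of 7 pairs and more than Tyr in 5 of 7. The high end was clearer. Kit, Ednrb, Pmel, Tyr, Mlana, Zeb2 and Dct each fell more than Sox10 in 7 of 7 pairs, and Mitf did so in 6 of 7. These comparisons are counts of pairs and were made after the values were seen, with no test.

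The make-up of the summed signal of the 10 genes, in which long genes weigh more, differed between the fractions. Sox10 took 16% ± 3.11 of the sum in IFE libraries (12.1% to 21.6%) and 35.5% ± 7.69 in placode-enriched libraries (23.4% to 44.7%; SD, n = 7 each), without overlap. The share of Dct was 10.1% ± 2.15 in IFE and 2.71% ± 2.5 in placode-enriched libraries, and that of Zeb2 was 9.57% ± 0.963 against 3% ± 1.77, also without overlap. Kit held a like share in both, 26.5% ± 2.45 and 27% ± 5.22. The shares of Tyr, Pmel, Mlana, Ednrb and Mitf overlapped between the fractions.

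**Figure D3:**
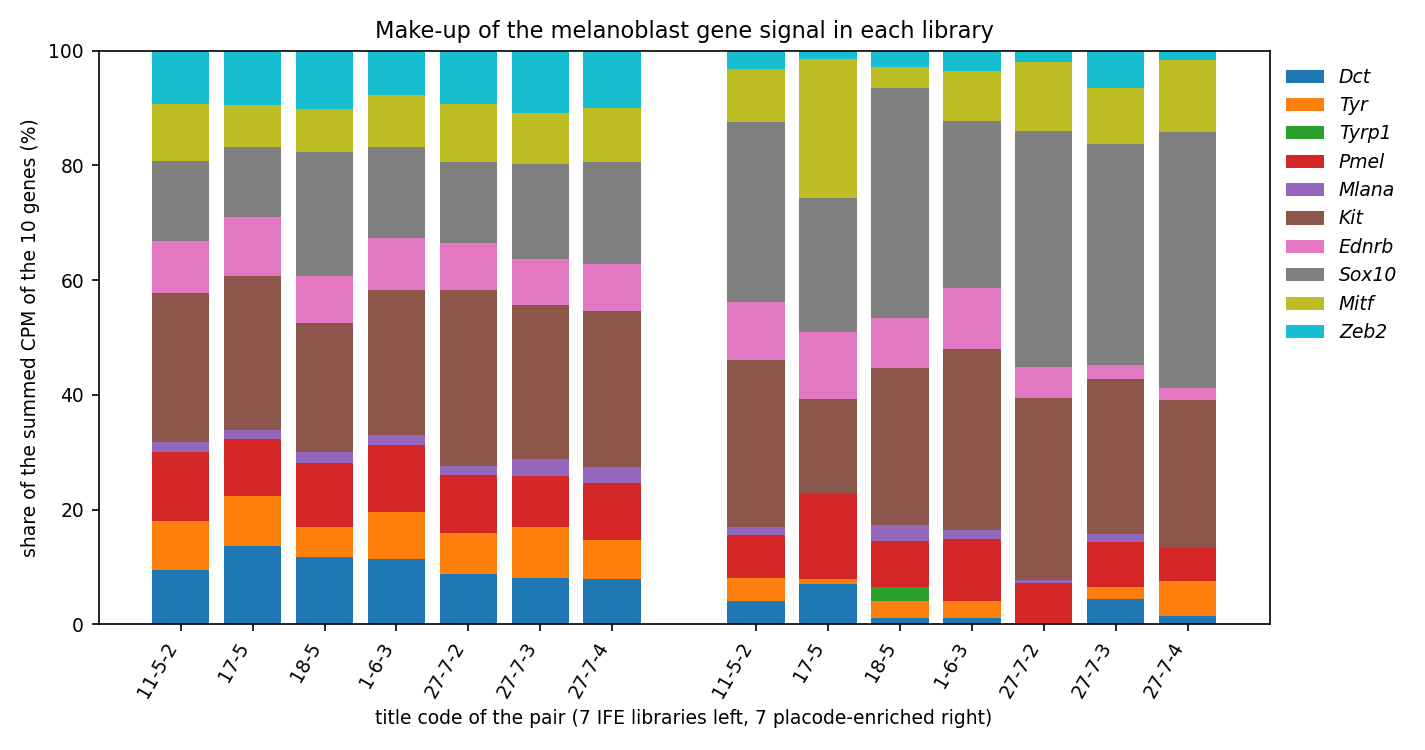
Share of each gene in the summed CPM of the 10 melanoblast genes, one bar per library, with 7 IFE libraries on the left and 7 placode-enriched libraries on the right. Sox10 (grey) takes 12.1% to 21.6% of the IFE bars and 23.4% to 44.7% of the placode-enriched bars.

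The order of levels between genes is given per kilobase of merged exon length. On that scale the IFE order was Sox10 at 9.86 ± 2.33 CPM per kilobase, Pmel at 8.82 ± 2.18, Kit at 5.63 ± 1.16, Ednrb at 3.92 ± 1.14, Mlana at 3.47 ± 0.776, Dct at 3.36 ± 1.35, Mitf at 2.68 ± 0.487, Tyr at 2.04 ± 0.609 and Zeb2 at 0.899 ± 0.142. Pmel stood above Kit, Kit above Ednrb and Tyr above Zeb2 in 7 of 7 libraries. The neighbours Sox10 and Pmel kept their order in 5 of 7 libraries, Ednrb and Mlana in 5, Mlana and Dct in 2, and Dct and Mitf in 4, so these were within their spread. Merged exon length counts every annotated exon, which is long for Zeb2 (19.9 kilobases) and lowers its value.

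The IFE pools differed in the amount of this signal. The summed CPM of the 10 genes was 190 ± 38.7 in IFE libraries and 12.1 ± 2.68 in placode-enriched libraries (SD, n = 7 each). It ran from 140 CPM in pair 6 to 243 in pair 2 among IFE libraries. Of the 9 tested genes, 5 had their highest IFE level in pair 2 and 6 their lowest IFE level in pair 6. The placode-enriched libraries followed another order. Pair 2 had the lowest sum among placode-enriched libraries, 8.42 CPM, whereas pair 6 had 14.4 CPM. The remaining sum was therefore 3.47% of the paired IFE library in pair 2 and 10.3% in pair 6, with a median of 7.76% over the pairs. Within the placode-enriched library of pair 2 the genes went separate ways, since Kit, Sox10 and Zeb2 (3 reads) were at their lowest there and Pmel and Mitf at their highest. Mlana had 0 reads there, as it had in pair 7.

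Pairs 5, 6 and 7 share the code start 27-7, whose meaning the labels do not give. In those pairs Sox10 stood at 5.92 ± 0.597 CPM in placode-enriched libraries (n = 3), against 3.26 ± 1.02 CPM in pairs 1 to 4 (n = 4), while IFE levels were 26.5 ± 4.57 and 32.8 ± 8.02 CPM. The test of whether its fraction difference varied with the code gave an unadjusted edgeR p of 0.00232 and an adjusted p of 0.902. Sox10 was the only 1 of the 9 genes with an unadjusted edgeR p under 0.05 there. Over all genes, 0 (0%) passed this edgeR test at an adjusted p under 0.05, and 528 had an unadjusted p under 0.05 (3.43%). The 9 genes were lower in the 3 pairs alone and in the other 4 pairs alone, each at an edgeR adjusted p under 0.05.

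Other genes of the melanosome were lower more often than higher. Of 32 tested genes of melanosome cargo, biogenesis and transport, 16 were lower, 2 higher and 14 did not pass, where 31.1% of all genes were called in either direction. Their median log2 fold change was -0.34. Those lower by at least 2-fold were 7 of the 32, where 4.90% of all genes tested were. They were the transporters Slc45a2 (-5.46 ± 0.81), Slc24a5 (-4.62 ± 0.46) and Slc7a11 (-4.68 ± 0.20), the membrane glycoprotein Gpnmb (-5.23 ± 0.66), the melanocortin receptor Mc1r (-4.0 ± 0.81), the protease Bace2 (-3.11 ± 0.74) and Mreg (-1.22 ± 0.10), which acts in melanosome transfer. Slc45a2, Slc24a5, Gpnmb, Mc1r and Bace2, with as few as 0 reads in a placode-enriched library, passed the low-count filter through their IFE counts. For these genes, being lower is tied to passing the filter, so the shares over all genes are a description and no separate support. Slc7a11, a cystine transporter, stood at 87.3 ± 11.7 CPM in IFE libraries and at 3.66 ± 1.92 CPM in placode-enriched libraries. Exons of Slc24a5 overlap 921 bases of Myef2 on the opposite strand, which stood at 146 ± 27.1 CPM in placode-enriched libraries. Those of Mc1r overlap 653 bases of the gene model Gm38092 on the opposite strand. The Bace2 call was lost in pairs 1 to 4 alone (edgeR adjusted p = 0.058). Gpr143, a melanosome receptor, was too low to be tested, at 0.37 ± 0.411 CPM in IFE libraries.

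The 2 higher genes, named after their values were seen, were Myo5a, a myosin that carries melanosomes (0.28 ± 0.09, edgeR adjusted p = 0.0271), and Sytl2, which links vesicles to the plasma membrane (0.73 ± 0.26, edgeR adjusted p = 0.0495). The Myo5a call was lost without pair 4 (edgeR adjusted p = 0.0631) or pair 6 (0.079). The Sytl2 call was lost without any 1 of pairs 1, 2, 4, 5, 6 and 7 (edgeR adjusted p between 0.0539 and 0.129). Trpm1, a channel of melanocytes, also named after its value was seen, was lower by only 0.55 ± 0.13 on the log2 scale, at 7.02 ± 1.59 against 10.1 ± 0.775 CPM.

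Regulators of the lineage went both ways. Of 22 tested, 9 were lower, 7 higher and 6 did not pass, with a median log2 fold change of -0.13. Of all genes tested, 15.6% were lower and 15.5% higher. Pax3, the paired-box factor that activates Mitf with Sox10, stood at 10 ± 2.22 CPM in IFE and 0.442 ± 0.382 CPM in placode-enriched libraries (-4.60 ± 0.55, edgeR adjusted p = 2.58e-05). Ptgds, a prostaglandin synthase (-6.03 ± 0.55), Syt4, a synaptotagmin (-5.23 ± 0.60), the factors Zeb1 (-3.96 ± 0.90) and Sox5 (-2.59 ± 0.74), the channel Mcoln3 (-3.80 ± 0.22), Vat1 (-1.66 ± 0.10) and Tfeb (-1.08 ± 0.30), a relative of Mitf, were lower too. Exons of Sox5, Zeb1, Syt4, Vat1, Bcl2 and Tfap2a overlap antisense or neighbouring genes on the other strand. Pax3, Ptgds, Syt4, Zeb1 and Sox5, with as few as 0 reads in a placode-enriched library, passed the low-count filter through their IFE counts. Being lower is tied to passing the filter for these genes. Those higher by at least 2-fold were Bcl2, which protects melanocytes from cell death (1.61 ± 0.08), Sox9 (1.56 ± 0.13), Mycn (1.27 ± 0.13) and Id3 (1.18 ± 0.08), all of which stood at 16.9 CPM or more in both fractions. Tfap2a, which acts in neural crest and in epidermis, stood at 550 ± 130 against 410 ± 61.8 CPM (0.40 ± 0.10, edgeR adjusted p = 0.00648, higher in 6 of 7 pairs). Erbb3, a neuregulin receptor, fell by 0.70 on the log2 scale (SE 0.07), with 142 ± 4.75 CPM in IFE libraries.

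**Figure D4:**
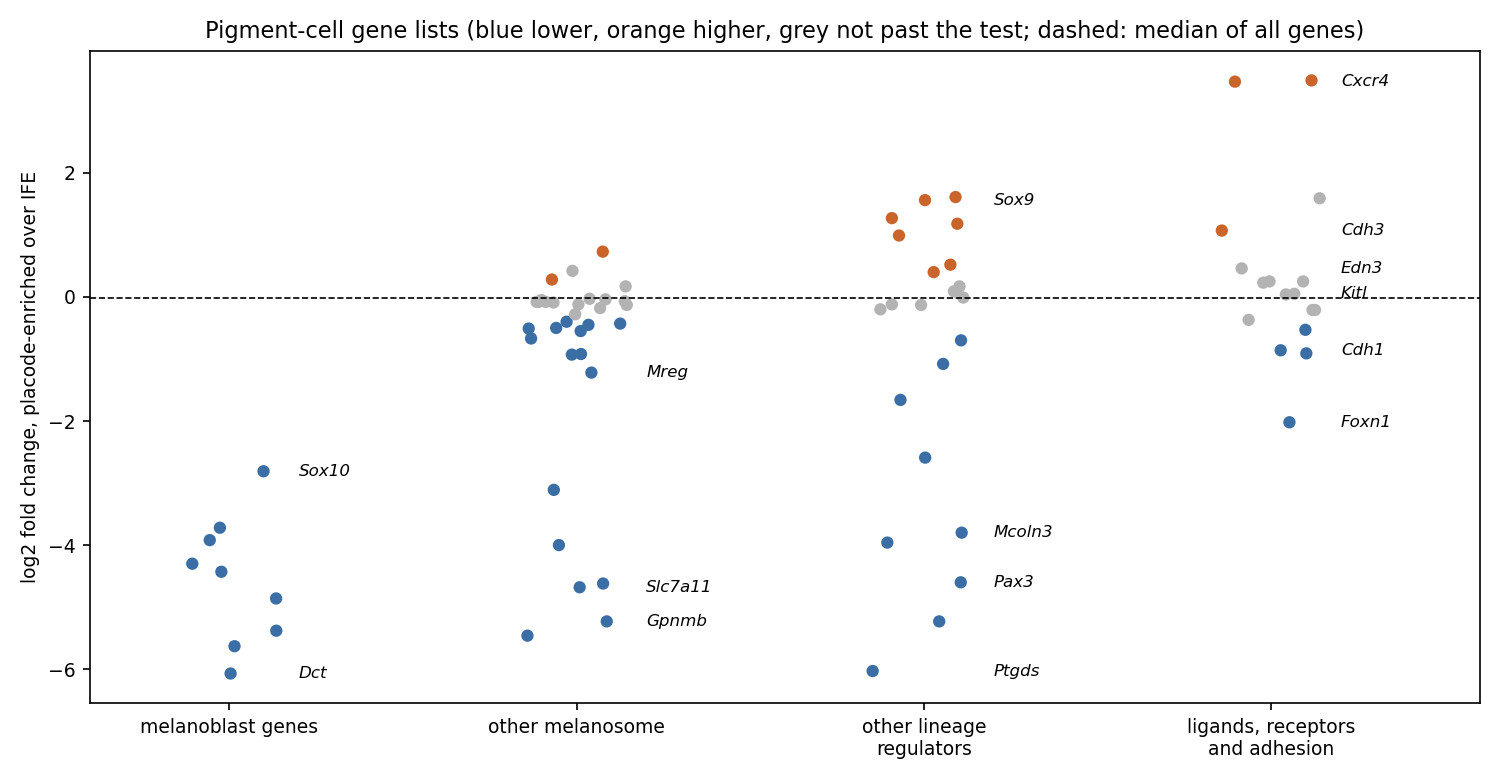
Log2 fold change of placode-enriched over IFE for tested genes of 4 lists, with blue for lower, orange for higher and grey for genes that did not pass at an edgeR adjusted p of 0.05, and a dashed line at the median of all genes. The 9 melanoblast genes lie between -6.07 and -2.81, while the other lists spread over both sides of 0.

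Neither Kitl nor Edn3 passed the test. Kitl, the ligand of Kit, had 84.2 ± 12.2 CPM in IFE cells and 87.4 ± 15.1 CPM in placode-enriched cells (0.05 ± 0.11 on the log2 scale, edgeR adjusted p = 0.805), and the sign changed without pair 3 (-0.06). Edn3, a ligand of Ednrb, was low in both, at 1.36 ± 0.285 CPM in IFE cells and 1.92 ± 0.532 CPM in placode-enriched cells (0.46 ± 0.28, edgeR adjusted p = 0.25). Among 17 tested ligands, partner receptors and adhesion genes there were 3 higher and 4 lower calls, and 10 missed the threshold. Of all genes tested, 15.5% were called higher and 15.6% lower. The median log2 fold change of the 17 was 0.05. The higher ones were Ednra, the other endothelin receptor, at 5.48 ± 0.462 against 0.536 ± 0.309 CPM (3.49 ± 0.36), the chemokine receptor Cxcr4 at 29.8 ± 5.33 against 2.68 ± 0.578 CPM (3.47 ± 0.13), and Cdh3, the P-cadherin of the hair placode, at 816 ± 175 against 383 ± 43.6 CPM (1.07 ± 0.08). Ednra thus went the opposite way to Ednrb. The lower ones were Foxn1, a factor of epidermal differentiation (-2.02 ± 0.20), Cdh1, the E-cadherin by which melanoblasts attach to keratinocytes (-0.86 ± 0.06), and, named after their values were seen, the endothelin Edn1 (-0.91 ± 0.25), which also binds Ednrb, and Wnt3a (-0.53 ± 0.13). The Edn1 call was lost without pair 4 (edgeR adjusted p = 0.0591).

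Several members are also made by other cells that a skin preparation could hold, so defining genes of those cells were measured. Beside the calls in these lists, 15.6% of all genes tested were lower and 15.5% higher. Kit and Mitf are made by mast cells. Of 6 mast cell genes analysed, all stood under 1 CPM on average in both fractions, and their sum ran from 0 to 2.62 CPM in IFE and from 0 to 0.13 CPM in placode-enriched libraries. Cpa3, a mast cell protease, was read in 1 of 14 libraries, the IFE library of pair 4, at 1.63 CPM. Without pair 4, the log2 fold changes of Kit and Mitf were -3.87 and -3.57 (edgeR adjusted p = 2.79e-07 and 1.38e-06). The part of mast cells in the Kit and Mitf levels was not tested.

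Zeb2 is made by leukocytes and by mesenchyme. Of 15 macrophage and leukocyte genes, 12 stood under 1 CPM on average in both fractions, with sums of 8.69 to 12.2 CPM in IFE and 6.63 to 12.5 CPM in placode-enriched libraries. Ptprc (CD45) stood at 0.116 ± 0.189 CPM in IFE libraries and Csf1r at 0.136 ± 0.133 CPM. Of the 5 tested, Cx3cr1 (-1.78 ± 0.28) and Itgam (-3.22 ± 0.79) were lower, Aif1 was higher (2.53 ± 0.49) and 2 did not pass, these 3 being named after their values were seen. Fibroblast genes summed to 1100 to 1450 CPM in IFE and 1180 to 1960 CPM in placode-enriched libraries, but Postn and Dcn alone made up 79.1% to 86.3% and 90.9% to 94.5% of these sums. Without both, the sums were 158 to 234 CPM in IFE and 102 to 124 CPM in placode-enriched libraries. Of 9 tested, Postn, Dcn and Col1a2 were higher, Col6a3, Vim and Col1a1 were lower and 3 did not pass (median 0.06). The mesenchymal factors Twist1 and Prrx1 had 0 reads in placode-enriched libraries and stood at 0.318 ± 0.287 and 0.335 ± 0.365 CPM in IFE libraries. The names of these genes other than Col1a1 were added after their values were seen. Pdgfra, a fibroblast receptor, stood at 0.446 ± 0.295 CPM in placode-enriched against 0.413 ± 0.289 CPM in IFE libraries. Col1a1 stood at 0.524 ± 0.283 against 4.20 ± 4.3 CPM, a difference whose call was lost without any 1 of pairs 2, 3, 4, 6 and 7 (edgeR adjusted p between 0.0921 and 0.136).

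Ednrb is made by some endothelial cells. Of 11 endothelial genes, 9 stood under 1 CPM on average in both fractions, with sums of 2.48 to 6.03 CPM in IFE and 3.78 to 7.32 CPM in placode-enriched libraries. Of the 2 tested, Pecam1 was higher in placode-enriched libraries (1.83 ± 0.594 against 0.493 ± 0.383 CPM). Cdh5, the cadherin of endothelium, was at 0 in all IFE libraries. Schwann cell and neural genes summed to 119 to 137 CPM in IFE and 156 to 260 CPM in placode-enriched libraries, of which Ncam1 alone, an adhesion molecule of many cell types, made up 7.96% to 11.4% and 49.3% to 63.1%. Without Ncam1, the sums were 106 to 126 CPM in IFE and 79.2 to 99.7 CPM in placode-enriched libraries. Of 11 tested, 5 were lower, 2 higher and 4 did not pass (median -0.75). Of these, Cdh19, Fabp7 and Tubb3, with as few as 0 reads in a placode-enriched library, passed the low-count filter through their IFE counts. The lower ones were Cdh19 and Fabp7, described beside Sox10, Tubb3 (-3.46 ± 0.72), L1cam (-1.52 ± 0.16) and Mbp (-0.75 ± 0.09), and the higher ones were Ncam1 (3.31 ± 0.10) and Sox2 (3.58 ± 0.41), all named after their values were seen. Of 3 tested Merkel cell genes, Sox2 was higher, Piezo2 was lower (-0.58 ± 0.17; call lost without pair 7, edgeR adjusted p = 0.0658) and 1 did not pass, and their list summed to 7.91 to 13 CPM in IFE and 7.74 to 16.1 CPM in placode-enriched libraries. The part of these cells in the melanoblast gene levels was not tested.

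**Figure D5:**
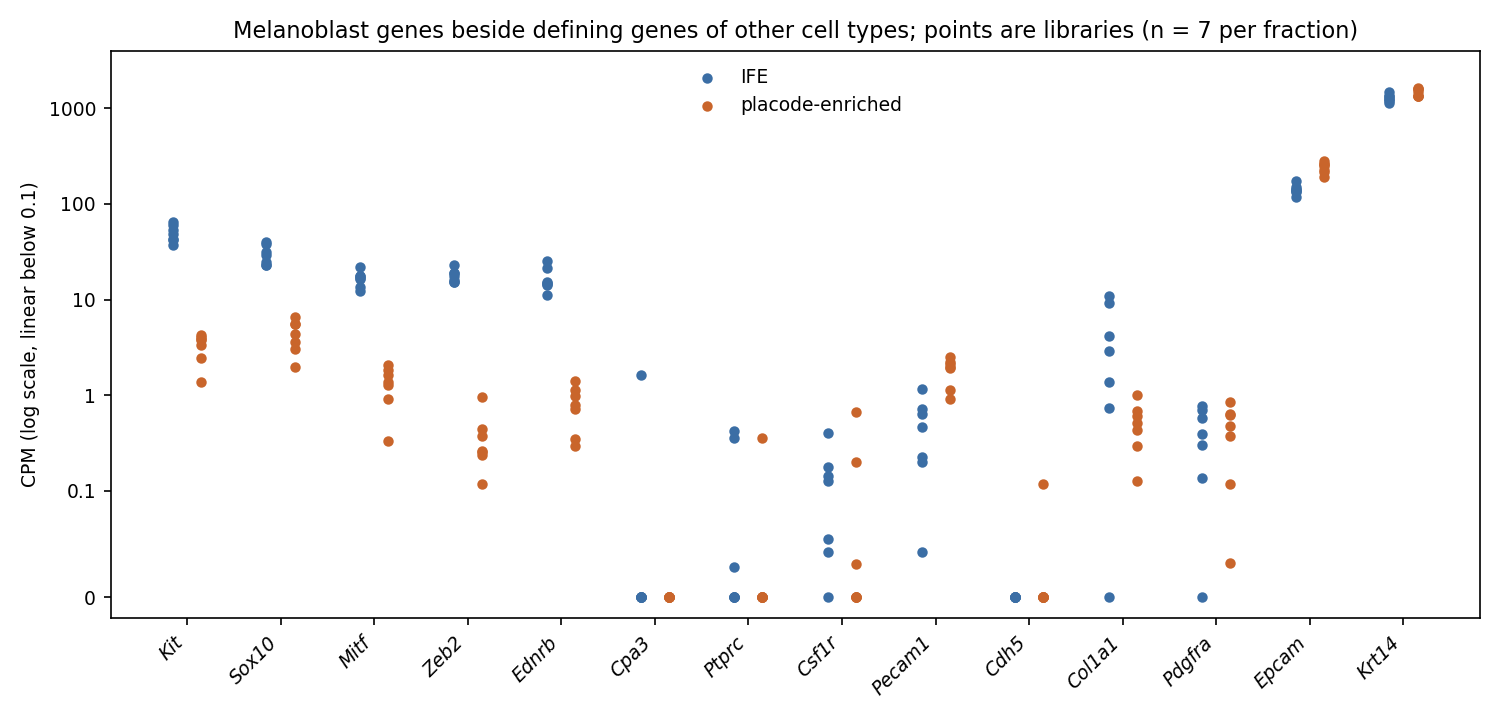
CPM in each library of 5 melanoblast genes beside defining genes of mast cells (Cpa3), leukocytes (Ptprc, Csf1r), endothelium (Pecam1, Cdh5), fibroblasts (Col1a1, Pdgfra) and epithelium (Epcam, Krt14), on an axis that is logarithmic above 0.1 and linear below. Kit, at 37.6 to 65.5 CPM in IFE libraries, and at 1.38 to 4.32 CPM in placode-enriched libraries, is separated by fraction, while Pdgfra is not.

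Genes with the most similar pattern were sought over the 7 IFE libraries, by Pearson r between a gene's log2 CPM and the log2 summed CPM of the 10 genes. The candidates were 326 named genes lower by a log2 fold change of at least 2 and at 1 CPM or more in IFE libraries. The highest r was that of Ptgds (0.972), which had also been listed as a gene of the lineage. Megf10 (0.967), an engulfment receptor, Nrg4 (0.946), an EGF-family ligand, and Chl1 (0.92), a neural adhesion molecule, were among the 10 highest. Gchfr (0.913) and Ces2g (0.9) were too, as were 3 genes of the differentiating epidermis, the desmosomal cadherins Dsg1b (0.927) and Dsg1a (0.883) and the lipid enzyme Elovl4 (0.871). The median r over the candidates was 0.334. The points share libraries, depth and scaling, so r is a description. Ptgds ran from 4 to 12.3 CPM over the IFE libraries with its highest level in pair 2, while Dsg1a ran from 111 to 166 CPM.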

How the data were processed

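Per the labels' protocols, Dispase II separated epithelium from mesenchyme, sorted cells went into a lysis reagent, and sequencing libraries were made from total RNA with Ovation SoLo reagents. The authors deposited 1 table of whole-number read counts by Ensembl identifier, not normalized. The submitters' processing notes name STAR and HTSeq beside bcl2fastq, Trimmomatic and 2 quality reporters, and the builds GRCm38 and mm10. For the annotation release, the strand setting and duplicates, the steps were not given in the sources used here. Reads amplified without molecular identifiers are not independent, so limits from counts cover counting error only.

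Symbols, coordinates and exon lengths came from GENCODE M21 (GRCm38), which matched 25949 of 26252 identifiers. Tests used edgeR 4.0.16 in R 4.3.3 (filterByExpr, TMM, robust quasi-likelihood, prior count 0.125), and 10870 genes were filtered out. The SE is the unshrunk coefficient over the square root of F. The design text names pairs, each title code occurs once in either fraction and pools are of 1 litter, so pairs entered as a block. Deviations from fraction means correlated between libraries of a pair by -0.132 to 0.195. Nothing else says how pools were separated, so p-values measure only how these pools vary.

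The members and lists were chosen with earlier results of these data known. Named were the members, list genes past the test at 2-fold or more, fixed role and defining genes, and the 10 genes most like the members over IFE libraries. Asip, Oca2, Tfec, Fcer1a, Mcpt4, Tpsb2 and Tpsab1 were listed but not analysed here, and 3 other genes the rule names are not reported here. Alternatives were no pair block, other scalings and filters, non-robust dispersion, a prior count of 2, DESeq2 1.42.0, limma-voom (limma 3.58.1), each pair left out and each code set alone. The edgeR script was tested on simulated data.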

Additional observations from a re-analysis of the deposited data

Results flagged for a closer look

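Of 172 groups of 7 libraries examined, in members, list genes, defining genes and similar genes, 20 (11.6%) held a library far from the other 6 by Dixon's criterion. Its rate of about 1 in 20 by chance holds for normally distributed values. Where the other 6 libraries are all 0, as for Cdh19, Cdh5, Cpa3, Fabp7, Ptprc and Tyrp1, any read brings a flag. The share therefore cannot be read as an excess over chance. Among the melanoblast genes, Zeb2 stood at 0.949 CPM in the placode-enriched library of pair 6, beside 0.118 to 0.442 in the others. Tyrp1 stood at 0.215 CPM in the placode-enriched library of pair 3 and at 0.0278 in the IFE library of pair 6, with 0 in the others.

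In other pigment and niche genes, placode-enriched pair 2 stood apart for Bace2 (2.60 CPM, others up to 0.577) and Syt4 (0.787, others up to 0.293). Placode-enriched pair 6 stood apart for Gpr143 (0.38 CPM, others up to 0.0585) and pair 5 for Wnt3a (30.3, others up to 21.9). Placode-enriched pair 1 stood apart for Megf10 (0.523 CPM, others up to 0.177) and was low for Cdh1 (286, others from 340). IFE pair 4 stood apart for Gpnmb (9.37 CPM, others up to 6.17).

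In genes of other cell types, placode-enriched pair 2 stood apart for Ptprc (0.354 CPM, others 0) and Csf1r (0.669, others up to 0.202), and pair 7 for Cdh5 (0.118, others 0). IFE pair 4 stood apart for Cpa3 (1.63 CPM, others 0) and IFE pair 5 for Aif1 (2.06, others up to 0.862). The only reads of 2 genes in placode-enriched libraries were in pair 6 for Cdh19 (0.0316 CPM) and in pair 1 for Fabp7 (0.281). IFE pair 3 stood apart for Col6a3 (9.02 CPM, others up to 5.26) and IFE pair 2 for Postn (917, others up to 748), and placode-enriched pair 5 was low for Dcn (336, median of the others 541).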

How the results depend on the processing

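The 9 melanoblast genes stayed lower at an adjusted p under 0.05 in 19 alternatives each, with log2 fold changes between -6.51 and -5.67 for Dct and between -3.34 and -2.15 for Sox10. Without the pair as a block, edgeR called 4689 genes beside 4786 with it, and the 9 stayed lower. All genes called numbered 2331 in the 3 pairs with the 27-7 code and 3087 in the 4 other pairs, and 3953 to 5229 with 1 pair left out. Melanosome genes called numbered 11 in either set of pairs, beside 18. For genes that did not pass, the log2 fold change of Kitl was -0.06 to 0.14 with 1 pair left out (lowest without pair 3) and -0.11 in the 27-7 pairs alone. That of Pdgfra was -0.41 (without pair 1) to 0.48, with -0.16 without pair 7, and -0.08 in the 27-7 pairs alone. Over 1337 alternative values of 71 single genes, 1280 kept direction and side of the threshold, 50 lost the call, 2 gained it and 5 changed sign. Depth limits genes of a few reads per placode-enriched library, namely Dct, Tyr, Mlana, Zeb2 and Tyrp1.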
